A study of Mus musculus with 12 samples.

Results

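Colonocytes that lack the C15ORF48/miR-147 locus (knockout, KO) were compared between mice given dextran sodium sulfate (DSS) at 3% for 3 days and untreated mice. The comparison uses 6 of the 12 RNA-seq libraries of the series, chosen by their labels: KO untreated 2, 4 and 5 and KO DSS 1, 2 and 3. All 6 carry the KO genotype, written in the labels as C15ORF48/miR-147 KO, and the labels give no promoter, strain, sex or age. The other 6 libraries are wild-type (WT) colonocytes, 3 untreated and 3 from DSS mice, and serve only to ask whether a difference was also seen with the locus present. The untreated and the DSS libraries were deposited in separate tables and carry separate number series, so DSS and batch go together and cannot be told apart in any difference below. In the labels, a shared protocol text mentions DSS for each of the 12 libraries, whereas for 6 of them treatment is given as none; titles and that field decided the groups. Nothing in the labels ties each library to its own mouse, so the p-values reflect library-to-library spread, which may be technical.

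DSS is a sulfated polymer that, taken in drinking water, damages the mucus layer and the epithelium of the colon and lets bacteria reach it. The crypts of the colon are renewed by stem cells held by Wnt signals, and after injury the epithelium is known to turn to a repair state with fetal-like markers such as Ly6a. Colonocytes also answer microbes and cytokines directly, with secreted antimicrobial lectins, interferon-induced proteins and antigen presentation.

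Reads recovered from the RPKM (reads per kilobase of gene, scaled to library size) came to 20606918 to 26839250 per KO untreated library and 12621697 to 16707030 per KO DSS library. The colonocyte label was checked against markers, and epithelial identity genes summed to 8062 to 9257 RPKM in the KO untreated libraries and 9375 to 9765 in the KO DSS libraries, with Epcam between 1171 and 1450 RPKM in every library. The 17 pan-leukocyte markers summed to 39.1 to 51.0 RPKM untreated and 52.4 to 83.6 under DSS. In bulk samples, fewer cells of a type and less RNA per cell cannot be told apart. The first principal component of the 6 libraries (50.7% of the variance of log2(RPKM + 1)) separated DSS from untreated, and the second (30.0%) placed KO DSS 1 and KO DSS 2 at opposite ends. KO DSS 1, the library with the fewest reads, stood apart from the other DSS libraries: its shortest 1107 genes (up to 1168 bases) lay 0.40 above the mean of the 6 libraries by their median on the log2 scale, against −0.17 in KO DSS 2 and 0.00 in KO DSS 3.

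AA467197, the mouse gene of C15ORF48 (GRCm38 chr2:122636986-122641191, plus strand), was low in every KO library. It had 5.64, 4.29 and 3.98 RPKM in KO untreated 2, 4 and 5 and 6.69, 7.38 and 9.23 in KO DSS 1, 2 and 3, beside a mean of 431 in either set of WT libraries. The signal left in the KO was higher in all 3 DSS libraries, by 0.64 on the log2(RPKM + 1) scale (SE 0.16, limma adjusted p = 0.0351), and rested on a mean of 72.5 reads; it was called in 4 of 7 other settings that left out no library. Ndufa4, a mitochondrial protein associated with cytochrome c oxidase (chr6:11900292-11907497, minus strand), had 766, 631 and 660 RPKM untreated and 1388, 765 and 892 under DSS. KO DSS 2 lay within the untreated range, and the difference of 0.52 (SE 0.23, limma adjusted p = 0.146) did not pass; without KO DSS 1 it was 0.27.

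KO DSS colonocytes differed from KO untreated colonocytes in 1672 of 11062 genes tested (15.1%), 840 higher (7.59%) and 832 lower (7.52%), at an adjusted p under 0.05 in limma. The median size of a called difference was 0.57 on the log2 scale, and the median over all genes tested was −0.0048. Every called gene had 3 DSS values that did not overlap the 3 untreated ones; over all genes tested, 4363 (39.4%) did not overlap. The number of calls depends on which libraries are kept. It was 91 without KO untreated 2, 0 without KO untreated 4 and 2 without KO untreated 5 (Reg3b and Reg3g). It was 3 without KO DSS 3 (AW112010, Axin2 and Slpi), 2623 without KO DSS 1 and 1840 without KO DSS 2. At an unadjusted p under 0.05 the count ran from 2680 to 4411 over these 6 fits, with 2680 without KO untreated 4. Of the genes picked by the naming rule 111 were called, and none of the 111 was called without KO untreated 4. All 111 kept their direction in every other setting in which they were tested. Since no called gene's groups overlapped, leaving out a library could hardly turn a direction, so kept direction is no measure of stability. None of the 111 moved by more than 1.5 times when a library was left out.

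**Figure D1:**
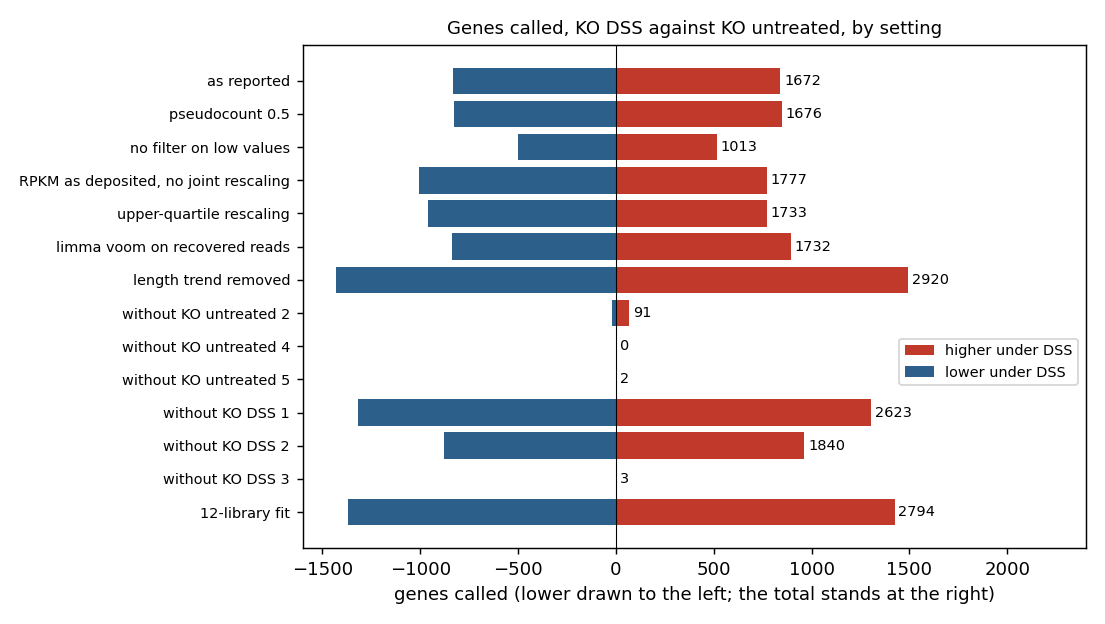
Genes called in KO DSS against KO untreated under each setting, with genes higher under DSS drawn to the right of 0, genes lower to the left, and the total printed beside each bar. The count is 1672 as reported, 2794 when the spread is taken from 12 libraries, and 0 to 2623 when a library is left out.

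Of 18 antimicrobial and acute phase genes tested 5 rose, beside 7.59% of all genes tested, and 0 fell. The median log2 difference over the 18 was 0.33. Reg3b and Reg3g, C-type lectins that bind bacteria and are made by gut epithelium, led the list. Reg3b (chr6:78370657-78373466, plus strand) had 142, 142 and 707 RPKM in KO untreated 2, 4 and 5 and 4990, 6326 and 5031 in KO DSS 1, 2 and 3. Every DSS value lay far above every untreated value, the highest of which came from KO untreated 5. The rise was 4.48 on the log2 scale (SE 0.56, limma adjusted p = 0.00889), or 16.5-fold between the means. Reg3g (chr6:78466269-78468872, minus strand) had 38.8, 44.1 and 125 RPKM untreated and 828, 1785 and 1166 under DSS, a log2 difference of 4.30 (SE 0.45, adjusted p = 0.00889). KO untreated 5 was again the highest untreated library and KO DSS 1 the lowest DSS library. The pair are close relatives, and how reads shared between them were counted is not given in the sources used here. Other members had lower values under DSS and did not pass: Ang4 differed by −1.52 (adjusted p = 0.126), Pla2g2a by −1.06 (adjusted p = 0.127) and Itln1 by −0.89 (adjusted p = 0.167), each highest in KO untreated 5.

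Slpi, a secreted inhibitor of neutrophil proteases, had 1.76, 0.948 and 1.12 RPKM untreated and 9.87, 13.8 and 22.9 under DSS (log2 difference 2.80, SE 0.27, adjusted p = 0.00889). Saa3, an acute phase apolipoprotein, had 7.79, 9.04 and 8.57 RPKM untreated and 16.9, 38.2 and 30.0 under DSS (1.56, adjusted p = 0.0134). S100a8, a subunit of calprotectin that is abundant in neutrophils, rose from at most 0.250 RPKM untreated to 1.03, 1.45 and 3.52 under DSS, on a mean of 6.33 reads. It passed the filter only through the DSS libraries, so it could enter the count only as a rise. In all 5 genes KO DSS 1 lay lowest of the DSS libraries.

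The promoter windows of Reg3b and Reg3g are shown because these genes rose most; each covers 250 bases before to 50 after the gene's start, from RefSeq (GRCm38.p6). Capitals mark matches to TTCNNNGAA, the core bound by STAT factors, on either strand; 8.30% of 32851 promoter windows hold one. Reg3b lies at chr6:78370635-78370934 (plus strand) and holds 1 match, and Reg3g lies at chr6:78468825-78469124 (minus strand), where these letters are not in the window.
Reg3b: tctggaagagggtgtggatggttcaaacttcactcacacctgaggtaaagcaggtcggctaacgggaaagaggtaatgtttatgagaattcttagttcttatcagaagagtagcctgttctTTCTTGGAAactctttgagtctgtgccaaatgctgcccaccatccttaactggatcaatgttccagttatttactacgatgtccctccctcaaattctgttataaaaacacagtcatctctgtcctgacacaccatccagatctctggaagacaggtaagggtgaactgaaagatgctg
Reg3g: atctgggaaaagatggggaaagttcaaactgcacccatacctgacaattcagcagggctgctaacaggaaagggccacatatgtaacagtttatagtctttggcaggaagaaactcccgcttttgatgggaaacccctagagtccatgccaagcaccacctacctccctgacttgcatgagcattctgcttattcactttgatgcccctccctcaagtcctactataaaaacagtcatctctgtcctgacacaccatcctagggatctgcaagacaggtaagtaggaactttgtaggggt

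**Figure D2:**
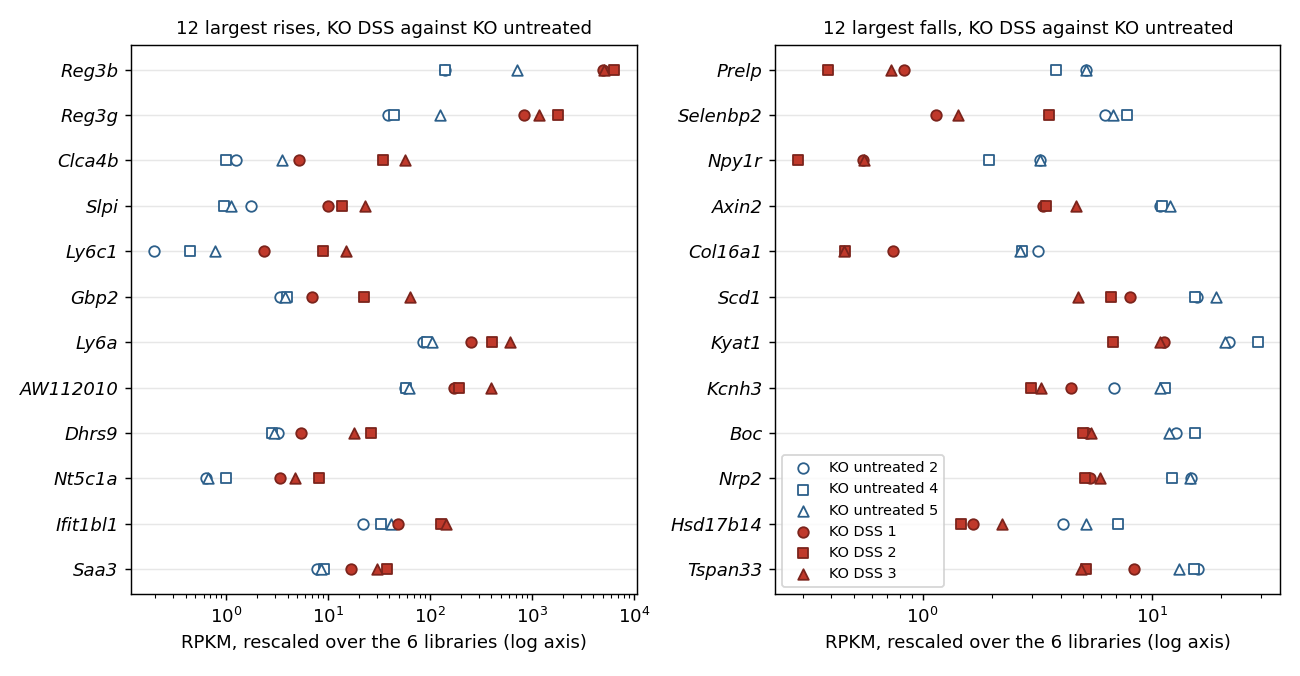
RPKM, rescaled over the 6 libraries, of the 12 called genes with the largest rises and the 12 with the largest falls (log axis), with 1 point per library. Open symbols are KO untreated libraries and filled symbols KO DSS libraries. Lack of overlap between the groups was a condition for picking the 24 genes. KO DSS 1 (filled circle) lies lowest of the DSS libraries in each of the 12 rises, for Reg3b barely (4990 against 5031 RPKM in KO DSS 3).

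Of 18 wound repair and fetal-like genes tested 7 rose and 0 fell, against 7.59% of all genes tested for rises, and the median was 0.52. Ly6a (Sca-1), the surface protein that marks repairing colon epithelium, had 86.0, 93.1 and 104 RPKM untreated and 252, 406 and 603 under DSS (log2 difference 2.06, SE 0.28, adjusted p = 0.00984). Areg, amphiregulin, an EGF receptor ligand, had 7.84, 7.72 and 6.52 RPKM untreated and 23.3, 19.7 and 18.9 under DSS (1.37, SE 0.12, adjusted p = 0.00889). The 3 DSS libraries lay within a narrow band for Areg and spread widely for Ly6a, where KO DSS 3 was highest. Ereg, a second ligand of that receptor, rose by 1.14 from values at or under 0.602 RPKM. It passed the filter only through the DSS libraries, so it could enter the count only as a rise.

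Anxa1, annexin A1, a pro-repair protein, had 119, 103 and 90.6 RPKM untreated and 273, 189 and 222 under DSS (1.11, adjusted p = 0.0107). Anxa3, the urokinase receptor gene Plaur and F3, tissue factor, rose by 0.84, 0.90 and 0.81. KO DSS 1 was the highest DSS library for Areg, Anxa1 and Anxa3 and the lowest for Ly6a, Ereg and Plaur, and the list's median over members was 0.65, 0.58 and 0.59 in KO DSS 1, 2 and 3 relative to the untreated mean. The Ly6 genes are a family of close copies, so Ly6a and Ly6c1, which had 0.197, 0.439 and 0.773 RPKM untreated and 2.36, 9.001 and 14.9 under DSS, could share reads.

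Of 17 crypt stem cell and Wnt target genes tested 8 were lower under DSS and 0 higher, against 7.52% of all genes tested for falls, with a median of −0.51. Axin2, a direct target and feedback inhibitor of Wnt signalling (chr11:108920349-108950783, plus strand), had 10.8, 11.1 and 11.9 RPKM untreated and 3.36, 3.46 and 4.66 under DSS. The highest DSS value lay well under the lowest untreated value, and the difference was −1.36 (SE 0.13, adjusted p = 0.00889). Rnf43, a ubiquitin ligase that removes Wnt receptors, had 10.3, 10.8 and 10.02 RPKM untreated and 5.29, 5.25 and 5.89 under DSS (−0.81, adjusted p = 0.00889). Ephb3, which positions cells along the crypt, had 9.34, 10.3 and 9.48 RPKM untreated and 4.52, 4.58 and 3.67 under DSS (−1.03, adjusted p = 0.00889).

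Lrig1, a brake on EGF receptors that marks crypt-base cells, fell from 31.4 ± 0.921 to 18.0 ± 1.24 RPKM (SD, n = 3 libraries per group). Smoc2, Ascl2, Sox9 and Rgmb, further genes of the crypt base, fell by 0.91, 0.73, 0.51 and 0.53. In all, 13 of the 17 had DSS values wholly under the untreated ones and 1 wholly above. Over all genes tested 39.4% did not overlap, counted in either direction. Of 30 cell cycle genes, 4 were lower under DSS (Cdc20, Plk1, Aurkb and Ube2c), beside 7.52% of all genes tested. None was higher, and the median was −0.18. Cdc20 had 22.0, 17.7 and 20.2 RPKM untreated and 11.1, 11.8 and 11.8 under DSS. The median of the cell cycle list relative to the untreated mean was −0.54 in KO DSS 1, 0.01 in KO DSS 2 and 0.04 in KO DSS 3, so KO DSS 1 stood apart there; for the Wnt list it was −0.64, −0.44 and −0.41.

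**Figure D3:**
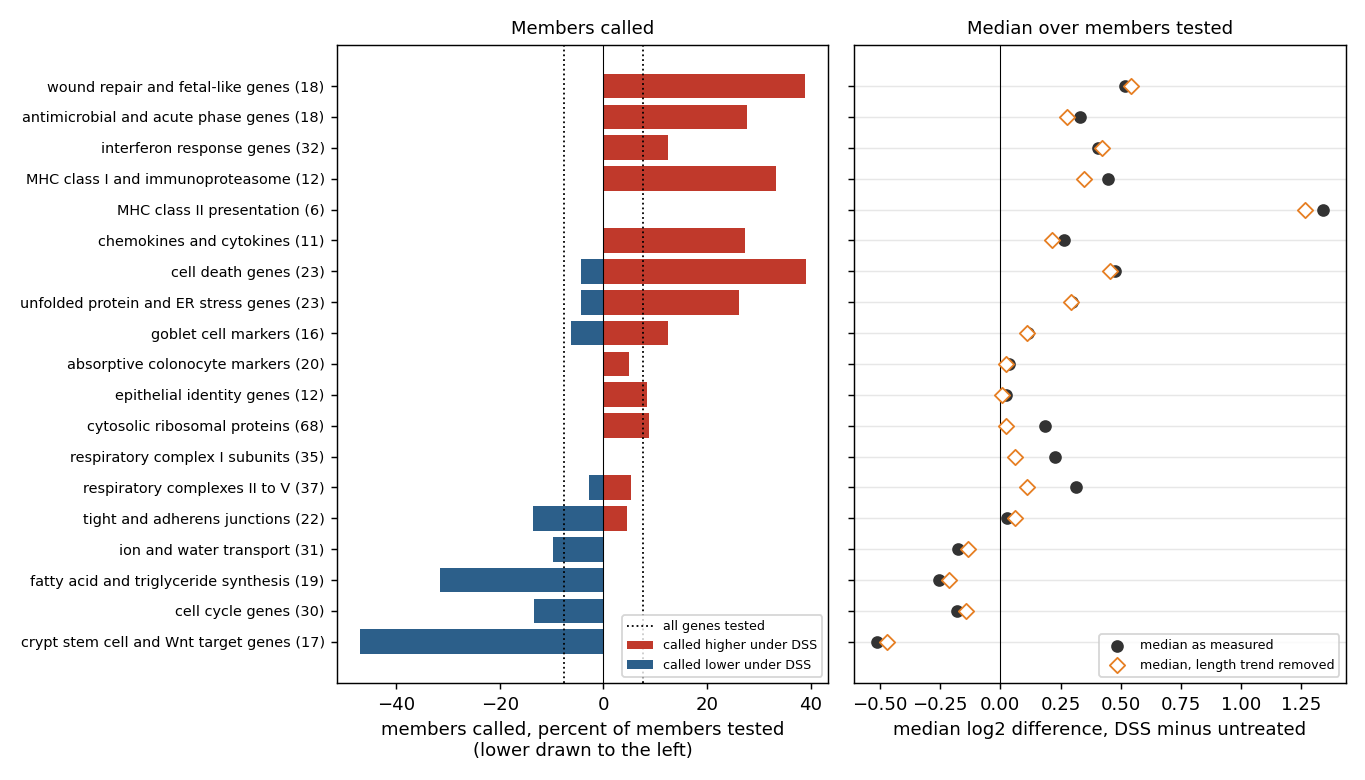
Members called as a percent of members tested (left; number tested in brackets; dotted lines are the percent over all genes tested) and the median log2 difference over members (right), for 19 gene lists. In the left panel, among these 19 lists, wound repair and cell death genes reach furthest to the right and crypt stem cell and Wnt target genes furthest to the left; taking out the trend with gene length (open diamonds) moves the ribosomal median from 0.19 to 0.02 and that of complexes II to V from 0.32 to 0.11.

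Interferon response genes were higher by their median (0.40 over 32 tested), with 29 of 32 above 0. Of the 32, 4 rose, beside 7.59% of all genes tested, and 0 fell. The 4 were Gbp2, Gbp7, Ifi47 and Zbp1, an interferon-induced sensor of unusual nucleic acids. Relative to the untreated mean the list's median was 0.14, 0.68 and 0.46 in KO DSS 1, 2 and 3. It was 0.25 in KO untreated 5, so KO DSS 1 lay within the untreated range. Gbp2, a guanylate-binding protein that attacks pathogen membranes, had 3.38, 3.96 and 3.77 RPKM untreated and 6.91, 22.6 and 63.7 under DSS (2.29, SE 0.62, adjusted p = 0.0453). The groups did not overlap, but the DSS libraries spread widely, in the order KO DSS 1, 2, 3. That order held for Gbp7 (1.64, 3.05 and 5.17), Ifi47 (14.1, 19.2 and 43.0) and Zbp1 (14.99, 26.4 and 35.4). With KO DSS 1 left out 14 of the list were called, and 0 were without any one of the other 5 libraries. AW112010, an interferon-inducible transcript among the largest rises, had 57.0, 58.2 and 61.6 RPKM untreated and 171, 191 and 399 under DSS (1.98, adjusted p = 0.0105).

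The promoter windows of Gbp2 (chr3:142620413-142620712, plus strand) and Gbp7 (chr3:142530086-142530385, plus strand) are shown as the called list members with a match to GAAANNGAA, a core bound by interferon regulatory factors, on either strand. Capitals mark the match. Of the list members with a window, 2 of 3 called and 14 of 17 other tested members hold a match, against 8.56% of all windows.
Gbp2: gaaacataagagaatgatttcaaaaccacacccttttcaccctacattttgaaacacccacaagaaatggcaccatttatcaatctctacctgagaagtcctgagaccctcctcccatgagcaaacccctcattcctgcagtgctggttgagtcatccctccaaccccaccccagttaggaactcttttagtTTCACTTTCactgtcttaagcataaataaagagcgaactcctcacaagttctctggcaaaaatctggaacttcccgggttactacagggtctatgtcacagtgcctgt
Gbp7: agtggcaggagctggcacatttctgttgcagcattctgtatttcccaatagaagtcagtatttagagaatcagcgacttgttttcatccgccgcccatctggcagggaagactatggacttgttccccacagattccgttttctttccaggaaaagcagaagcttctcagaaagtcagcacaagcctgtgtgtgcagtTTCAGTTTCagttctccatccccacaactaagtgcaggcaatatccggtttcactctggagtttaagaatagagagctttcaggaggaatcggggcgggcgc

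In the list of genes of MHC class I and of the immunoproteasome, which cuts peptides for it, 4 of 12 tested rose and 0 fell. Over all genes tested 7.59% rose, and the list's median was 0.45. Psmb8, a catalytic subunit, had 24.5, 32.0 and 26.8 RPKM untreated and 53.2, 50.7 and 84.9 under DSS (1.12, adjusted p = 0.0166), and the subunit Psmb9 had 23.2, 25.3 and 25.6 and 36.9, 38.9 and 62.9 (0.84, adjusted p = 0.0301). Psme1 and Psme2, the 2 subunits of the proteasome activator PA28, rose by 0.62 and 0.73. Psmb10, the remaining inducible catalytic subunit, did not pass (0.28, adjusted p = 0.161). No MHC class II gene was called (0 of 6), though all 6 were above 0 with a median of 1.34. Cd74, the invariant chain, had 10.3, 30.7 and 5.01 RPKM untreated and 7.995, 44.8 and 84.7 under DSS, so KO DSS 1 lay inside the untreated range, and the difference of 1.35 (SE 0.85, adjusted p = 0.295) did not pass; it was 0.65 without KO DSS 3, 0.80 without KO untreated 5 and 2.28 without KO DSS 1. H2-Ab1 had 4.35, 9.59 and 4.96 untreated and 6.23, 19.4 and 35.8 under DSS (1.34, adjusted p = 0.124, and 0.80 without KO DSS 3). Without KO DSS 1 all 6 class II genes were called.

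Among 11 chemokine and cytokine genes tested, 3 rose, beside 7.59% of all genes tested, and 0 fell. Il18, an epithelial cytokine of the interleukin 1 family, had 101, 54.7 and 69.0 RPKM untreated and 220, 159 and 167 under DSS (1.30, SE 0.23, adjusted p = 0.0149). Cxcl10, an interferon-induced T cell attractant, rose from 0.543 ± 0.435 to 3.50 ± 1.32 RPKM (adjusted p = 0.0144), and Cxcl16 rose by 0.81. Of 18 genes of NF-kappaB signalling, 2 were higher (Ripk2 and Tnip3) and 3 lower (Rela, Relb and Tnip1), beside 7.59% and 7.52% of all genes tested. The largest of these called falls was Rela's, from 17.6 ± 1.07 to 12.2 ± 1.74 RPKM.

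Of 13 pan-leukocyte genes tested all were above 0, with a median of 0.57, and 3 rose, beside 7.59% of all genes tested. The 3 were Fcer1g (1.55 ± 0.247 to 3.88 ± 0.538 RPKM), Cd52 (4.44 ± 0.969 to 8.18 ± 1.68) and Cd48 (0.675 ± 0.257 to 1.47 ± 0.250). Cd48 reached 1 RPKM only in the DSS libraries, so it passed the filter through them and could enter only as a rise. That all members tested were above 0 is thus partly fixed in advance. Relative to the untreated mean the list's median was 0.26, 0.59 and 0.78 in KO DSS 1, 2 and 3, the same order as Gbp2 and Cd74. The median of the interferon list had another order, with 0.14, 0.68 and 0.46 in KO DSS 1, 2 and 3. Lyz2, a myeloid lysozyme, had 1.65, 0.956 and 1.94 RPKM untreated and 2.75, 4.71 and 7.51 under DSS (1.19, adjusted p = 0.0335) and was the 1 called of 4 tested macrophage and dendritic cell markers, whose list summed to 27.1 to 31.7 RPKM untreated and 29.1 to 44.3 under DSS.

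Neutrophil markers summed to 60.6, 49.8 and 48.8 RPKM in KO untreated 2, 4 and 5 and 64.3, 102 and 131 in KO DSS 1, 2 and 3. Those other than Ly6g were at or under 6.26 RPKM in every library, with Mpo, Elane, Camp and Ngp at 0 in all 6. The 2 tested, S100a8 and Ly6g, had DSS values wholly above the untreated ones, while 39.4% of all genes tested did not overlap in either direction. S100a8 was called and Ly6g (difference 0.76) was not. Of 12 T cell and intraepithelial lymphocyte markers none was called (median 0.31), with Cd7 at 5.48 to 7.76 RPKM untreated and 8.003 to 13.1 under DSS and Ccl5 at 4.08 to 9.68 and 4.63 to 6.54. Of B and plasma cell markers only Sdc1, which epithelium also makes, passed the filter (103 ± 16.1 and 103 ± 17.8 RPKM), and Jchain was at or under 0.251. Fibroblast markers summed to 9.54 to 12.8 RPKM untreated and 9.57 to 18.1 under DSS with none of 4 tested called, Vim at 5.003 ± 0.254 and 5.67 ± 0.988 and Dcn at 2.27 ± 0.904 and 3.04 ± 2.73. No endothelial, muscle or nerve marker passed the filter; Pecam1 and Tagln, the highest, were at or under 3.27 RPKM. The part of leukocytes in the interferon and MHC differences was not tested.

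**Figure D4:**
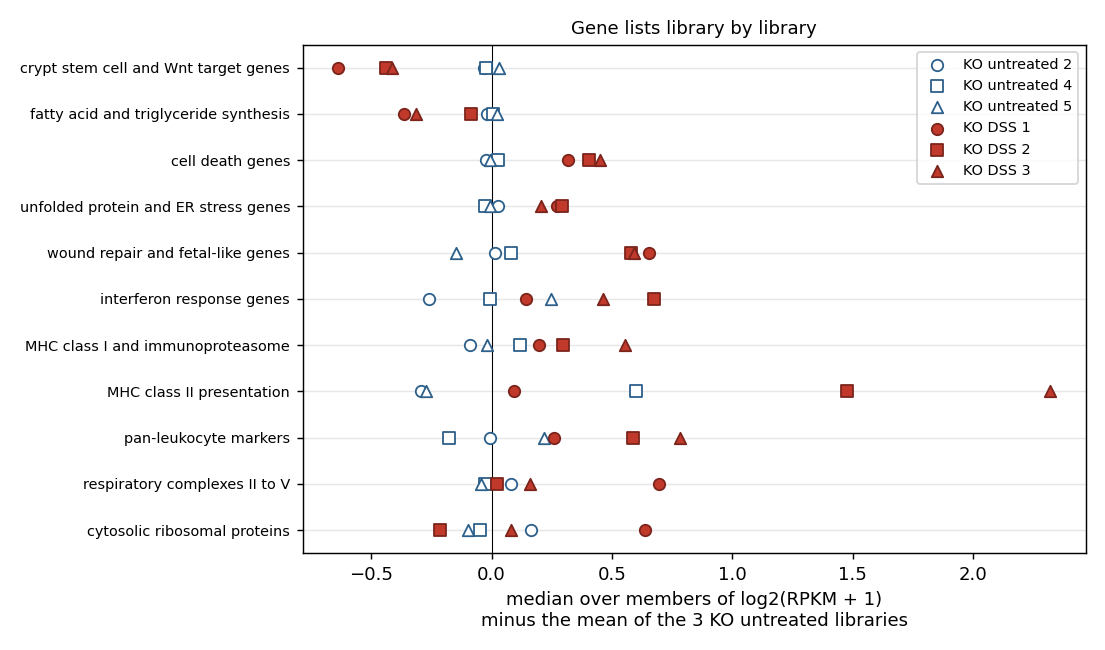
Median over the tested members of 11 gene lists in each KO library, as log2(RPKM + 1) minus the mean of the KO untreated libraries. The DSS libraries lie together, apart from the untreated ones, for Wnt, cell death, ER stress and wound repair genes; for MHC class II and leukocyte genes they spread in the order KO DSS 1, 2, 3, and for respiratory and ribosomal genes KO DSS 1 stands alone above the rest.

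Of 23 cell death genes tested 9 rose and 1 fell, beside 7.59% and 7.52% of all genes tested, with a median of 0.47. Casp4, the inflammatory caspase that senses cytosolic lipopolysaccharide, had 17.0, 18.0 and 15.1 RPKM untreated and 35.1, 35.8 and 39.5 under DSS (1.10, SE 0.11, adjusted p = 0.00889). Casp1, the inflammasome caspase, had 164, 170 and 159 and 323, 246 and 298 (0.80, adjusted p = 0.0133), and its substrate Gsdmd, the pore former of pyroptosis, rose by 0.48. In each of these genes every DSS library lay above every untreated one. Casp8 and Ripk3, which decide between apoptosis and necroptosis, rose by 0.47 and 0.78.

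Aim2, a DNA sensor of the inflammasome, rose by 0.52. Gsdmc4 and Gsdmc2, gasdermins of the gut epithelium, rose by 0.93 and 0.78, and being near copies of each other they may share reads. Bbc3 (Puma), a p53 target that triggers apoptosis, went the other way, from 3.65, 3.58 and 3.32 RPKM to 1.23, 1.63 and 1.53 (−0.88, adjusted p = 0.00889).

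Of 23 unfolded protein and ER stress genes tested 6 rose and 1 fell, beside 7.59% and 7.52% of all genes tested. The list's median was 0.30. Dnajb9, a co-chaperone that represses the sensor IRE1, had 28.2, 29.4 and 31.2 RPKM untreated and 45.5, 44.7 and 48.5 under DSS (0.63, SE 0.10, adjusted p = 0.0116). Hspa5 (BiP), the main ER chaperone, had 205, 178 and 178 and 319, 301 and 232 (0.59, adjusted p = 0.0373). Manf, Sdf2l1, Pdia3 and Dnajc3, secreted or resident folding factors of the ER, rose by 0.60, 0.53, 0.50 and 0.43. Ern2, the IRE1 of mucus-secreting cells, fell from 41.8 ± 2.88 to 26.5 ± 7.08 RPKM (−0.67, adjusted p = 0.0434). The sensors' targets Ddit3, Atf4 and Xbp1 were not called.

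The windows of Hspa5 (chr2:34771840-34772139, plus strand) and Dnajc3 (chr14:118937682-118937981, plus strand) are shown as the 2 of 5 called ER stress genes with a window that hold the ER stress response element, searched as CCAAT, any 9 bases and CCACG on either strand and marked in capitals. It was found in 5 of 15 other tested members and in 0.119% of all windows.
Hspa5: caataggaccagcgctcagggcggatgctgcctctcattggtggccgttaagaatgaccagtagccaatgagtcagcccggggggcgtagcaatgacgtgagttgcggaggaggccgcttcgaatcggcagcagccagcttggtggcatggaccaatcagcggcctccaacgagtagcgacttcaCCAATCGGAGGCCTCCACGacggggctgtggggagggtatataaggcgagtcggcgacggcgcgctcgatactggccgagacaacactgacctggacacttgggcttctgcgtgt
Dnajc3: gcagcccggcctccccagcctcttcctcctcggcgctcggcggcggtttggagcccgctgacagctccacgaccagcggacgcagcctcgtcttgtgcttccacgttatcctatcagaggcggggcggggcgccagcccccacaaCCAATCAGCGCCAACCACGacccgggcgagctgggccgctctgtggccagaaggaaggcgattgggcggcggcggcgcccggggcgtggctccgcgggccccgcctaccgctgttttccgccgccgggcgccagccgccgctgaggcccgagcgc

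Goblet cell markers were mixed, with 2 of 16 higher and 1 lower (Ern2), beside 7.59% and 7.52% of all genes tested. Their median was 0.11. Zg16, a secreted lectin of the mucus that binds bacteria, had 3345, 2456 and 3525 RPKM untreated and 6846, 7853 and 8682 under DSS (1.34, SE 0.22, adjusted p = 0.0136). Tff3, the trefoil peptide that promotes epithelial restitution, had 1106, 868 and 1007 and 2284, 1920 and 2419 (1.15, adjusted p = 0.0107). Neither gene's groups overlapped, and the group means differed 2.51-fold for Zg16 and 2.22-fold for Tff3.

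Of 20 absorptive colonocyte markers 1 rose, Tmigd1, an adhesion protein of the brush border (129 ± 22.8 to 218 ± 49.0 RPKM), and the list's median was 0.04. Over all genes tested 7.59% rose and 7.52% fell, so 1 call in a list of 9 to 20 genes lies near those shares. Tspan8, a tetraspanin, was the 1 called of 12 epithelial identity genes (509 ± 28.2 to 903 ± 39.7 RPKM, 0.83, adjusted p = 0.0111). Among deep crypt secretory cell markers Kit, a receptor of these cells, fell from 18.5 ± 3.43 to 11.4 ± 1.39, and Mptx1, a pentraxin, had 2324, 1810 and 4720 RPKM untreated and 3010, 310 and 395 under DSS without passing (adjusted p = 0.135). Rgs13 was the 1 called tuft cell marker of 10 (4.88 ± 0.469 to 14.4 ± 4.13 RPKM), with a list median of 0.39. Among 14 enteroendocrine genes the hormones Gcg and Nts rose, by 0.64 and 0.999. Of 9 small intestinal enterocyte markers tested 1 rose, Fabp1, to at most 4.10 RPKM (a mean of 14.8 reads), and 1 fell, Anpep, from 2.72 ± 0.250 to 1.51 ± 0.377. The list summed to 339, 439 and 395 RPKM untreated and 405, 386 and 418 under DSS, with Mep1a, a peptidase, the most abundant member at means of 201 and 218 RPKM (adjusted p = 0.609).

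Of 31 ion and water transport genes 3 were lower and 0 higher, beside 7.52% of all genes tested for falls, with a median of −0.18. Scnn1a, a subunit of the epithelial sodium channel, had 62.8, 54.3 and 57.2 RPKM untreated and 31.1, 36.0 and 31.4 under DSS (−0.81, adjusted p = 0.00984). Kcnq1, a potassium channel, had 45.1, 54.5 and 47.0 and 24.8, 24.9 and 33.0 (−0.81, adjusted p = 0.0146), and Ano1, a chloride channel, fell from 40.3 ± 4.53 to 21.2 ± 4.66. Of 22 junction genes the tight junction claudin Cldn8 rose (19.98 ± 3.66 to 44.9 ± 8.61 RPKM, 1.13, adjusted p = 0.0117), while Cldn3, Cldn15 and plakoglobin (Jup) fell by 0.52, 0.57 and 0.48. Over all genes tested 7.59% rose and 7.52% fell.

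Of 19 fatty acid and triglyceride synthesis genes 6 fell, beside 7.52% of all genes tested, and 0 rose, with a median of −0.25. Scd1, which makes monounsaturated fatty acids, had 15.7, 15.4 and 19.0 RPKM untreated and 8.04, 6.62 and 4.76 under DSS (−1.26, SE 0.18, adjusted p = 0.00984). Srebf1, the transcription factor of the pathway, had 25.4, 24.1 and 21.0 and 13.3, 13.3 and 10.8 (−0.86, adjusted p = 0.0104), and Gpam, the first step of triglyceride synthesis, fell by 1.04. Acly and Acss2, which supply acetyl-CoA, and Fasn, fatty acid synthase, fell by 0.51, 0.60 and 0.71. Cholesterol synthesis had 2 of 25 higher, Msmo1 and Sc5d (0.72 and 0.48), and a median of 0.03. In fatty acid oxidation 3 of 29 rose, Acadl, Decr1 and Etfa, by 0.48, 0.54 and 0.45. The rises in cholesterol synthesis and fatty acid oxidation stand near the 7.59% of all genes tested.

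No subunit of respiratory complex I was called (0 of 35), and the median of that list was 0.23. Its most abundant members, Ndufb9 and Ndufa6, had 468 ± 48.3 and 384 ± 25.4 RPKM untreated and 620 ± 222 and 467 ± 95.2 under DSS. In complexes II to V 2 rose (Uqcrb and Cycs) and 1 fell (Atp5d) of 37, with a median of 0.32. Of 68 cytosolic ribosomal proteins 6 rose, among them Rpl39, Rpl23, Rpl38 and Rps16, with a median of 0.19. Over all genes tested 7.59% rose, so the counts of rises in both lists lie near that share. The medians of these lists were highest in KO DSS 1: relative to the untreated mean complex I lay at 0.58, −0.04 and 0.08, complexes II to V at 0.70, 0.02 and 0.16, and ribosomal proteins at 0.64, −0.22 and 0.08 in KO DSS 1, 2 and 3. With the trend in gene length removed the medians of the 3 lists were 0.06, 0.11 and 0.02. The members called in that setting were 6, 9 and 17, against 0, 3 and 6. Calls over all 11062 genes tested went from 1672 to 2920 there. Cycs, Rps16 and Rpl38 have processed copies elsewhere in the genome and low values here, so their counts are uncertain. Pcx and Pdk2, which steer pyruvate in mitochondria, fell by 0.57 and 0.68, and no glycolysis gene of 13 was called, with Aldoa at 694 ± 81.4 and 659 ± 38.6 RPKM and Ldha at 472 ± 27.1 and 499 ± 35.7.

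Of 42 detoxification genes 3 were higher and 3 lower, beside 7.59% and 7.52% of all genes tested. Sult1b1 and Sult1d1, sulfotransferases, rose from 102 ± 5.35 to 180 ± 10.6 and from 268 ± 28.4 to 430 ± 44.6 RPKM, and Cyp2c66 rose by 1.12. The glutathione transferases Gstm1 and Gstm3, close relatives that could share reads, fell by 0.97 and 0.91, and Cyp2s1 fell by 0.65. Txn1, thioredoxin, was the 1 called of 23 antioxidant genes, at 772, 621 and 724 RPKM untreated and 1364, 1210 and 1348 under DSS (0.89, adjusted p = 0.0134). In the hypoxia list Bnip3l, a receptor for mitophagy, rose by 0.74 and Epas1 (HIF-2α) fell by 0.57, the 2 called of 18.

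The immediate early genes Jund, Junb and Ier2 were lower under DSS by 0.82, 0.58 and 0.63 and Klf6 was higher by 0.65, of 25 tested in that list. Among 16 clock genes Nr1d1 (REV-ERBα), a repressor of the daily rhythm, fell from 55.8 ± 11.8 to 29.2 ± 3.87 RPKM and Nfil3 rose from 1.25 ± 0.228 to 2.81 ± 0.783; the labels give no hour of collection, so time of day cannot be told apart from DSS. In the list of Hox genes and colon position 1 of 23 was called, Hoxa3, from 7.48 ± 0.879 to 4.64 ± 1.21 RPKM, with 3 members above 0 and a median of −0.24. Of the sex-linked genes in the list only Xist passed the filter, at 12.7 to 32.3 RPKM untreated and 25.7 to 38.3 under DSS without a call, and Ddx3y was at 0 in all 6 libraries. Over all genes tested 7.59% were called higher and 7.52% lower, or 15.1% in either direction. The counts called in the immediate early, clock and Hox lists lie near or under the last share.

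Other genes among the largest rises were Clca4b, of the chloride channel accessory family (1.24, 0.988 and 3.49 RPKM untreated and 5.204, 34.6 and 57.0 under DSS), Dhrs9, a retinol dehydrogenase (2.99 ± 0.206 to 16.5 ± 10.4), Nt5c1a, a cytosolic nucleotidase (0.769 ± 0.208 to 5.41 ± 2.45), and Ifit1bl1, of the IFIT family (32.0 ± 9.91 to 106 ± 50.9). For Clca4b and Dhrs9 KO DSS 1 lay nearest to the untreated values, and the other DSS libraries far above. The largest fall was that of Prelp, a matrix proteoglycan, with 5.18, 3.81 and 5.14 RPKM untreated and 0.830, 0.385 and 0.729 under DSS (−1.79, SE 0.16, adjusted p = 0.00889). Npy1r, a receptor of neuropeptide Y, had 3.25, 1.96 and 3.24 and 0.551, 0.286 and 0.554 (−1.37, adjusted p = 0.00889), and Col16a1, a collagen, fell from 2.85 ± 0.299 to 0.553 ± 0.166.

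Nrp2, a receptor of semaphorins, fell from 13.9 ± 1.42 to 5.48 ± 0.409 RPKM, and Boc, a coreceptor of Hedgehog ligands, fell from 13.4 ± 1.88 to 5.22 ± 0.202. The remaining large falls were those of Selenbp2, a selenium-binding protein (−1.46), Kyat1, a kynurenine aminotransferase (−1.24), Kcnh3, a potassium channel (−1.21), Hsd17b14, a steroid dehydrogenase (−1.20), and Tspan33, a tetraspanin (−1.17).

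The same step from untreated to DSS libraries in WT colonocytes, taken from a fit over 12 libraries, called 556 of 11306 genes (4.92%), 199 higher and 357 lower; the KO step in that fit called 2794. Of the 1672 genes called in KO, 1378 had the same sign in WT, 202 of them called there, and 12 were called with the opposite sign. The share with the same sign over all genes tested was not counted, so the 1378 have no background beside them. The WT step crosses the same tables, so any effect of the table enters both. Ly6a rose in both, by 2.06 in KO and 1.68 in WT, and Scd1 fell in both, with steps of −1.26 and −1.02. Reg3b differed by 4.48 in KO and, without passing, by 1.46 in WT (435 to 1845 RPKM); the difference between the 2 steps was 3.02 (SE 1.10, limma adjusted p = 0.173) and did not pass.

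Asked as an interaction, whether the step differs between KO and WT, 140 of 11306 genes were called (1.24%), 86 more positive and 54 more negative in KO. An effect of the table that is equal in both genotypes cancels there, but one particular to a single group of libraries does not. Leaving out a library gave 1 to 436 calls, with 1 without KO untreated 2, KO untreated 5 or WT DSS 1, 2 without KO DSS 3, WT untreated 3 or WT DSS 2, 41 without WT untreated 1, 42 without KO untreated 4, 58 without WT untreated 2, 294 without WT DSS 3 and 436 without KO DSS 1. Among the most positive was Mal, an apical sorting protein, which had 35.2, 55.5 and 61.2 RPKM in KO untreated 2, 4 and 5, 84.8, 220.2 and 57.6 in KO DSS 1, 2 and 3, 78.5, 40.2 and 63.6 in WT untreated 1, 2 and 3 and 14.8, 9.48 and 18.8 in WT DSS 1, 2 and 3. The KO values overlapped between DSS and untreated (step 1.04, not called in the fit over 12 libraries), the WT values did not (step −2.005), and the interaction was 3.05 (SE 0.59, limma adjusted p = 0.0354).

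St3gal5, a sialyltransferase of gangliosides, and Enpep, a brush border peptidase, were called with interactions of 2.91 and 2.34, with WT steps of −3.08 and −1.80 and KO steps of −0.18 and 0.53 that did not pass. Cyp2c66 and Ncoa7 rose in KO (1.12 and 1.05) and fell in WT (−1.15 and −0.97). On the negative side Nxpe4 had 29.9, 22.7 and 33.4 RPKM in KO untreated and 20.3, 14.2 and 12.3 in KO DSS against 27.4, 18.8 and 12.98 in WT untreated and 42.3, 39.5 and 37.4 in WT DSS (interaction −1.88, adjusted p = 0.0319). Itih2, AI854703, St6galnac4, Adh1 and Cyp2d12 had interactions of −2.05, −1.80, −1.70, −1.59 and −1.59. Adh1, alcohol dehydrogenase, is the most abundant of these, with 819, 615 and 635 RPKM in KO untreated, 672, 346 and 436 in KO DSS, 609, 513 and 359 in WT untreated and 903, 1131 and 963 in WT DSS.

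**Figure D5:**
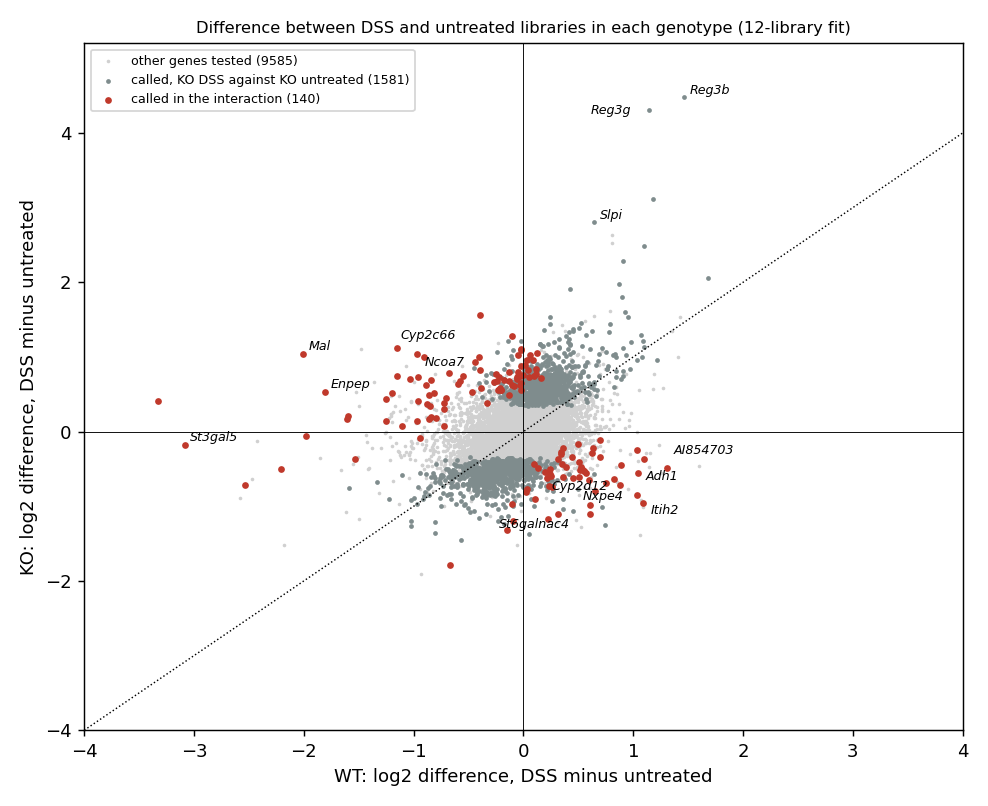
Log2 difference between DSS and untreated libraries in WT (x axis) and in KO (y axis), both from the fit over 12 libraries, for 11306 genes; the dotted line marks equal differences. The 140 genes called in the interaction (red) lie off the line, Mal and St3gal5 through WT differences of −2.005 and −3.08, while Reg3b, Reg3g and Slpi lie high in KO without an interaction call.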

How the data were processed

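Purified mouse colonocytes were profiled by stranded poly(A) RNA-seq, per the labels' protocols. The deposited values are RPKM per gene and library, per the file headers, in 2 tables that the authors normalized separately, one for untreated and one for DSS libraries. TopHat2 2.1.1, edgeR 3.30.3 and the builds GRCm38 and mm10 are named in the submitters' processing notes; which program counted reads, whether by strand, and on which annotation is not given in the sources used here. Coordinates are from the GRCm38 annotation, by gene symbol.

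The tables were joined by symbol (23790 genes), after leaving out 4 lines with repeated date-like names. No sample column was left unmapped. The RPKM were whole multiples of the value of 1 read (within 0.02 reads) for 100% of genes, which gave the depths; KO libraries held 12621697 to 26839250 reads. Replicates of a KO group correlated at 0.969 to 0.993 (Pearson, log2 scale) and differed by more than sampling noise in every pair (chi-square over its degrees of freedom, 22.9 to 68.2).

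RPKM of the 6 KO libraries were rescaled jointly by median ratio. Genes reaching 1 RPKM in 3 or more libraries were tested with limma 3.58.1 (R 4.3.3; mean-variance trend, 2-sided) on log2(RPKM + 1), with Benjamini-Hochberg adjustment over all genes tested and calls at an adjusted p under 0.05. Log2 differences on this scale understate the change of low genes. Genes that reached 1 RPKM only in the 3 libraries of 1 group, such as Ly6c1 (DSS) and Prelp (untreated), could differ only in that direction. The interaction and the WT step came from 1 fit over 12 libraries. As an alternative, limma voom was run on the recovered reads, with 1732 calls.

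On simulated counts for the KO comparison (11064 genes) the test recovered 42% of genes changed 1.5-fold, 98% at 2-fold and 100% at 3-fold and 4-fold, and called 14 unchanged genes. For the interaction (11229 genes) it recovered 12%, 68%, 100% and 100% and called 10 unchanged genes. The counts were drawn independently, with the same spread beyond sampling noise set for every gene and no trend with gene length. The real libraries differ in that trend, so these percentages and false calls do not carry over to them.

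Genes were named by rule: AA467197 and Ndufa4, the 12 largest called rises and falls without overlap between groups whose reads averaged at least 50 (gene models left out), up to 4 called members of each list by smallest p, the most abundant 2 members of lists with none called, and the 6 largest interactions each way; some genes that the rule picks are not reported here. Other called list members, and Epcam, Mptx1, S100a9, Ly6g, Psmb10, Mep1a, Ang4, Pla2g2a, Itln1 and the markers given as at 0, were named after their values were seen. The lists and the comparison were chosen with earlier results of these data known.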

Additional observations from a re-analysis of the deposited data

Results flagged for a closer look

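The genes below were picked out because the step from untreated to DSS libraries differed between KO and WT by limma's interaction term over 12 libraries, at adjusted p-values from 0.0311 to 0.0450. Among the genes called in KO by the naming rule, the KO step was the more positive for Saa3 (interaction 1.96), Nts (1.91), Tmigd1 (1.90), Sult1d1 (1.26), Bnip3l (0.78) and Dnajb9 (0.66). It was the more negative for Tspan33 (−1.39), Col16a1 (−1.16), Prelp (−1.12), Nrp2 (−1.10), Acly (−1.02), Scnn1a (−0.83) and Lrig1 (−0.80). For Saa3 the step was 1.56 in KO and −0.39 in WT, where it was not called. Tmigd1 rose by 0.74 in KO and fell by 1.15 in WT. Prelp fell in both, with steps of −1.79 in KO and −0.67 in WT.

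Among the most positive interactions were those of Mal (3.05), St3gal5 (2.91), Enpep (2.34), Cyp2c66 (2.27) and Ncoa7 (2.01). The most negative were those of Itih2 (−2.05), Nxpe4 (−1.88), AI854703 (−1.80), St6galnac4 (−1.70), Adh1 (−1.59) and Cyp2d12 (−1.59).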

How the results depend on the processing

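No paired analysis was possible because KO untreated 2, 4 and 5 and KO DSS 1, 2 and 3 share only the number 2. Against 1672 genes called in KO, 1013 were called with no filter on low values (17822 genes tested), 2920 with the trend in gene length removed and 2794 in the fit over 12 libraries; leaving out a library gave 0 to 2623. Another pseudocount, the RPKM as deposited, upper-quartile rescaling and voom gave 1676, 1777, 1733 and 1732. All of these kept the sign of every called gene they tested, which the lack of overlap between groups largely fixed in advance. Against 140 genes called in the interaction, 4 were called with no filter and 543 with the length trend removed; leaving out a library gave 1 to 436. With a library left out a group has 2 samples and the spread is pooled over groups. The genes named for the interaction lost their call with no filter.

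Of the 111 called named genes, 69 were called in every setting that left out no library. Differences that changed sign were all uncalled: Aldoa ran from −0.14 to 0.020 when a library was left out, Ccl5 from −0.32 to 0.22, Sdc1 from −0.14 to 0.098 and Dcn from −0.37 to 0.47. Sdc1 also changed sign with voom (0.0065) and with the length trend removed (0.021). The cause was not tested. Voom gave larger differences for genes of few reads, such as S100a8 (3.85 against 1.34). Depth limits the precision of such genes.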
